A study of Bos taurus with 8 samples.

Results

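The 7 bovine miRNAs described here were bta-miR-23a, bta-miR-27a-3p, bta-miR-24-3p, bta-miR-23b-3p, bta-miR-27b, bta-miR-26a and bta-miR-26b, chosen by name as the products of the miR-23a/27a/24 and miR-23b/27b/24 clusters and of the miR-26 genes. They were 7 of the 744 bovine miRNAs on the array. All 7 were detected by the scanner software on all 8 arrays, as were 143 miRNAs in all. The RNA came from plasma exosomes, small membrane vesicles that cells release into blood, of 6 Japanese Shorthorn steers aged 21 to 28 months and raised on grass. In one group 3 steers grazed on pasture for 4 mo, and in the other 3 steers were housed in a free-stall barn and fed cut grass. The exosomal RNA of the 3 steers was pooled at 0, 1, 2 and 4 mo, so each of the 8 arrays held 1 pool, with no repeat of any pool.

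The feeding groups carry opposite names in the sample labels and in the study's supplementary expression table. On every array labelled housed, the signals of all 7 miRNAs lay within 1% of a raw column headed G, the table's letter for grazing, of the same month. On every array labelled grazing they lay within 1% of a column headed A. The table's legend names G and H columns and no A, so A was taken to be H, for housed. The arrays are therefore called labelled housed and labelled grazing throughout, and every difference between the groups changes its sign when the table's headings are followed.

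The 2 clusters arose by duplication, and each is transcribed as 1 precursor from which 3 miRNAs are cut. The miR-23 and miR-27 products of the clusters are near-identical paralogues, whereas both clusters yield the same mature miR-24-3p. In mammals, miR-27 is known as a brake on fat cell formation, miR-24 and miR-26 as restraints on cell proliferation, and miR-23 as a repressor of glutaminase. Mature miR-26a is encoded by 2 genes and miR-26b by 1, all in introns of genes for CTDSP phosphatases. In blood tests, miR-23a is the usual partner of the red-cell miRNA miR-451 in an index of haemolysis.

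The RefSeq annotation of ARS-UCD2.0 was used for gene order only. It lists MIR23A, MIR27A and MIR24-2 as consecutive miRNA genes on chromosome 7, and MIR23B, MIR27B and MIR24-1 as consecutive miRNA genes on chromosome 8 inside AOPEP, a protein-coding aminopeptidase gene. MIR26A-1 lies inside CTDSPL on chromosome 22, MIR26A-2 inside CTDSP2 on chromosome 5 and MIR26B inside CTDSP1 on chromosome 2. The entry bta-miR-24-3p therefore sums both clusters, and bta-miR-26a sums both of its genes.

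Each miRNA was read by a longer and a shorter probe, with 20 spots of each. The longer probes are shown because they set how well paralogues could be told apart. They are written 5′ to 3′ as DNA, with the bases at which a probe differs from that of its paralogue in capitals.
bta-miR-23a: tggAaatccctggca
bta-miR-23b-3p: gtggTaatccctggc
bta-miR-27a-3p: cGgaacttagccact
bta-miR-27b: gcAgaacttagccactgt
bta-miR-24-3p: ctgttcctgctgaactga
bta-miR-26a: aGcctatcctgGatt
bta-miR-26b: aAcctatcctgAattacttg
The 23a and 23b probes differed at 1 of the 14 bases that they share, the 27a and 27b probes at 1 of 15, and the 26a and 26b probes at 2 of 15. How much of each signal came from the paralogue was not tested. The array design places these probes on UMD_3.1. The 23a probe is at chr7:12982022-12982035, the 27a-3p probe at chr7:12981849-12981863 with another listing at chr7:10102360-10102374, and the 24-3p probe at chr7:12981696-12981712. The 23b-3p probe is listed at chr8:83009660-83009674 and at chr8:85962089-85962103, and the 27b probe at chr8:83009887-83009903. The 26a probe is listed at chr22:11457922-11457936 and chr5:55977943-55977957, and the 26b probe at chr2:107133411-107133429. Some listed spans are 1 base shorter than the probe. The design lists the probe of bta-miR-24-3p at the chromosome 7 cluster only.

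Both probes of a miRNA followed each other closely over the arrays. The log2 ratio of the longer to the shorter probe ranged over 0.06 for bta-miR-23a, 0.07 for bta-miR-26b, 0.10 for bta-miR-27b, 0.12 for bta-miR-24-3p, 0.13 for bta-miR-26a and 0.19 for bta-miR-27a-3p. For each of these the range was below the mean error of the ratio that the scanner software's estimates gave, which lay between 0.20 and 0.21. The exception was bta-miR-23b-3p, with a range of 0.35 and an error of 0.23. Its shorter probe was also the dimmest, with a signal of 11.4 on its lowest array.

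The arrays differed in overall brightness. The 90th percentile of the signals over all 744 miRNAs was 109, 83.2, 50.7 and 82.5 scanner units for the pools labelled housed at 0, 1, 2 and 4 mo, and 40.7, 31.2, 56.1 and 34.2 for those labelled grazing. Each signal was divided by this percentile and taken to log2, which is the scaled level given below. All arrays lay on 1 slide, with 1 label in each column, so slide column and feeding group cannot be told apart.

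In the miR-23a/27a/24 cluster, the signal of bta-miR-23a was 757, 715, 367 and 574 at 0, 1, 2 and 4 mo on the arrays labelled housed, and 213, 225, 391 and 212 on those labelled grazing. Its scaled level was 2.80, 3.103, 2.86 and 2.80 on the former and 2.39, 2.85, 2.80 and 2.63 on the latter, with an error of 0.11 on each. It was lower on the array labelled grazing in each month, by 0.05 at 2 mo and by up to 0.41 at 0 mo. The signal of bta-miR-27a-3p was 629, 613, 306 and 543 on the arrays labelled housed, and 155, 152, 323 and 141 on those labelled grazing. Scaled, it lay at 2.53, 2.88, 2.60 and 2.72 against 1.93, 2.28, 2.52 and 2.05. The levels of the labels did not overlap, and both met most closely at 2 mo, where they differed by less than their error of 0.16. How many of all miRNAs had levels without overlap was not counted.

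The signal of bta-miR-24-3p, which both clusters give, was 1217, 844, 488 and 784 on the arrays labelled housed, and 272, 291, 669 and 268 on those labelled grazing. The scaled level of this miRNA was 3.48, 3.34, 3.27 and 3.25 on the former and 2.74, 3.22, 3.58 and 2.97 on the latter. It had both its lowest and its highest scaled level on arrays labelled grazing, at 0 mo and at 2 mo. It was the 1 member whose level at 2 mo was higher on the array labelled grazing, by 0.31 with an error of 0.14.

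In the miR-23b/27b/24 cluster, the signal of bta-miR-23b-3p was 349, 401, 200.3 and 306 on the arrays labelled housed, and 103, 132, 182 and 98.9 on those labelled grazing. Its scaled level was 1.68, 2.27, 1.98 and 1.89 against 1.34, 2.08, 1.70 and 1.53. In both labels it was highest at 1 mo and lowest at 0 mo. The signal of bta-miR-27b was 839, 699.9, 349.9 and 655 on the arrays labelled housed, and 173, 168, 339 and 158 on those labelled grazing. Scaled, it lay at 2.95, 3.07, 2.79 and 2.99 against 2.09, 2.42, 2.59 and 2.21. The labels did not overlap, and the gap was 0.86, 0.65, 0.19 and 0.78 in the order of the months, with an error of 0.15 on each. As for bta-miR-27a-3p, the share of all miRNAs without overlap was not counted.

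In the miR-26 family, the signal of bta-miR-26a was 1311, 937, 578 and 941 on the arrays labelled housed, and 362, 356, 513 and 327 on those labelled grazing. Its scaled level was 3.59, 3.49, 3.51 and 3.51 against 3.15, 3.51, 3.19 and 3.26. On the arrays labelled housed it moved by at most 0.10, less than the error of 0.16 on such a difference. The signal of bta-miR-26b was 1208, 1059, 569 and 1001 on the arrays labelled housed, and 337, 373, 572 and 293 on those labelled grazing. After scaling it lay at 3.47, 3.67, 3.49 and 3.60 against 3.05, 3.58, 3.35 and 3.098. Both were lowest on the array labelled grazing 0 mo.

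**Figure D1:**
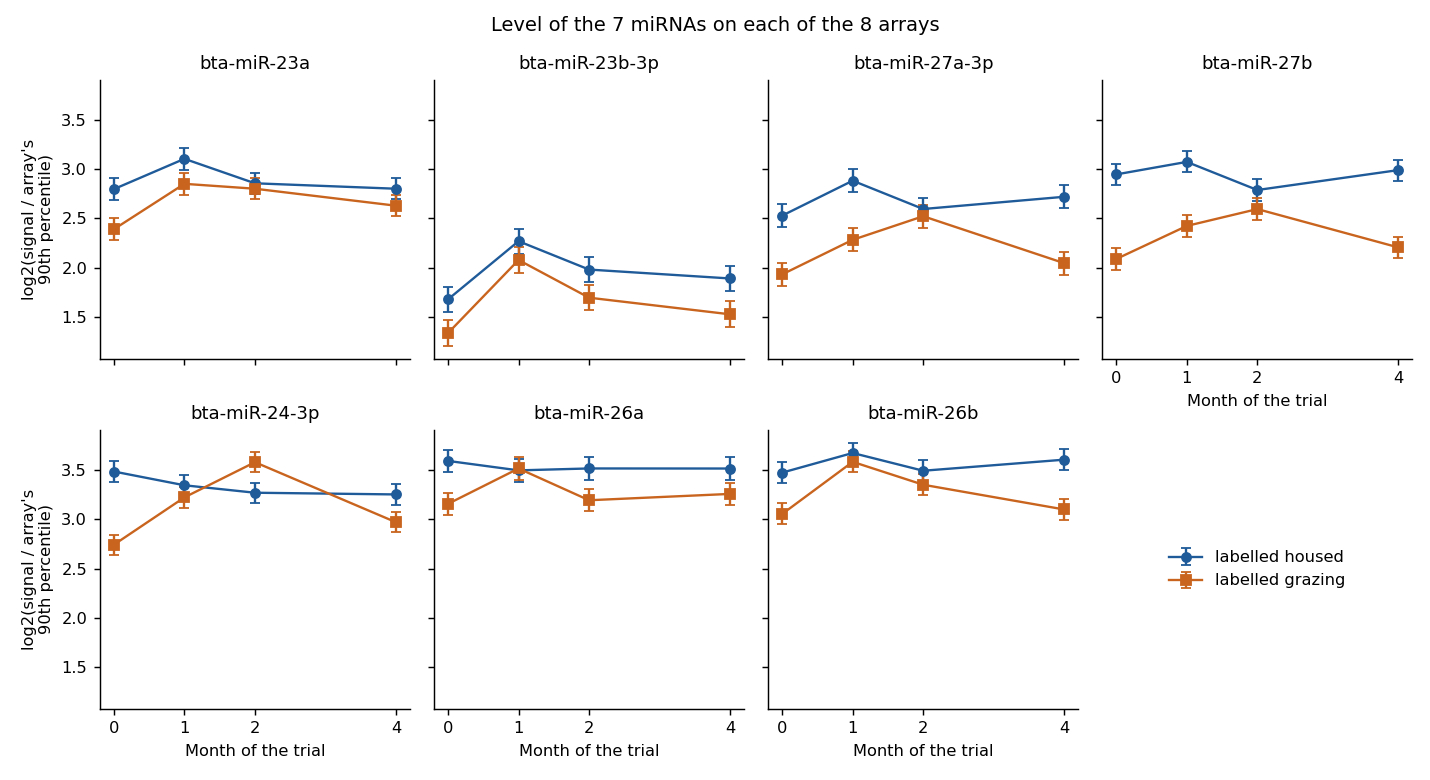
Scaled level of each of the 7 miRNAs (log2 of the signal over the array's 90th percentile) against the month of the trial, with 1 array per point and the scanner software's error as bars. The lines of both labels run closest at 1 or 2 mo, and the array labelled grazing 0 mo holds the lowest level of every member.

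The other entries of these genes gave no such signal. The arms bta-miR-23b-5p and bta-miR-27a-5p, the entry bta-miR-24 without an arm suffix and bta-miR-26c were detected on 0 of the 8 arrays. The highest signal among these 4 was 2.78, for bta-miR-24 on the array labelled housed 1 mo, which was 1.38 times its error.

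Together the 7 miRNAs gave 4.00%, 6.25%, 4.58% and 5.28% of the summed signal of detected miRNAs in the pools labelled housed, in the order of the months. Those labelled grazing gave 2.82%, 3.73%, 4.70% and 2.90%. The share was highest at 1 mo in the former and at 2 mo in the latter. It is a share of brightness and not of molecules, since probes differ in how strongly they bind. In pooled plasma, fewer exosomes of 1 source and less miRNA in each cannot be told apart.

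The pools already differed at the start. At 0 mo all 7 members were lower on the array labelled grazing, by 0.34 to 0.86 on the log2 scale with a median of -0.43. Over the 143 miRNAs the median was -0.22, and 69.9% were lower. The study's own filter, which kept miRNAs within 0.5 to 2-fold at 0 mo and with raw signals above 30, was met by all 7. The largest of these starting gaps was that of bta-miR-27b, at 0.553-fold.

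The first comparison asked whether the change from 0 mo differed between the feeding groups. The mean change of bta-miR-24-3p at the later months was 0.51 on the arrays labelled grazing and -0.20 on those labelled housed. At 1, 2 and 4 mo it was 0.48, 0.83 and 0.23 in the former and -0.14, -0.21 and -0.23 in the latter. The difference of 0.71 (SE 0.41) was the largest of the members, and it did not pass the test in limma, at an adjusted p of 0.802. For the other 6 the difference lay between 0.06 for bta-miR-23b-3p and 0.31 for bta-miR-27b, with standard errors of 0.39 to 0.41. None of the 7 was called at an adjusted p under 0.05, beside 2 of all 143 miRNAs, or 1.4%. None had an unadjusted p under 0.05, beside 6.29% of all miRNAs.

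These differences were positive for all 7 members, but so were 62.2% of all 143 miRNAs, whose median was 0.15. Relative to that median 5 members were higher, bta-miR-23b-3p was lower, and bta-miR-27a-3p was itself the median. When arrays were scaled by the 90th percentile of the miRNAs detected on all arrays, every value fell by 0.43 and 6 of the 7 members became negative. With the 75th percentile every value fell by 0.15, and bta-miR-23b-3p and bta-miR-27a-3p became negative.

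The next comparison left out the 0 mo arrays and set the labels against each other at 1, 2 and 4 mo. The mean level of bta-miR-27b was 2.41 on the arrays labelled grazing and 2.95 on those labelled housed. The difference of -0.54 (SE 0.20) had an adjusted p of 0.0637 in limma and was lower in 3 of 3 months. The mean level of bta-miR-27a-3p was 2.28 against 2.73, a difference of -0.45 (SE 0.21) with an adjusted p of 0.130 in limma. For the other 5 the difference lay between -0.28 for bta-miR-23b-3p and -0.03 for bta-miR-24-3p. The adjusted p of these 5 in limma lay between 0.326 and 0.898.

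None of the 7 was called in this comparison, beside 16 of 143 miRNAs, or 11.2%, and 2 members, the paralogues bta-miR-27a-3p and bta-miR-27b, had an unadjusted p under 0.05, beside 36.4% of all miRNAs. All 7 lay below the median of all miRNAs, which was -0.01, and their median was -0.24. Over the alternatives the adjusted p of bta-miR-27b in limma ranged from 0.0275 to 0.429. It passed the test with an intensity trend, at 0.0275, and with the 90th percentile of the miRNAs detected on all arrays, at 0.0321. When each array was scaled to let-7g, which the study used to normalize its qRT-PCR, every value rose by 0.33 and 5 of the 7 members became positive, while bta-miR-27a-3p and bta-miR-27b were at -0.12 and -0.22.

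The last comparison across miRNAs asked what changed with time in both labels. The mean change of bta-miR-23b-3p from 0 mo was 0.43 on the arrays labelled grazing and 0.37 on those labelled housed, and its fitted change over both was 0.40 (SE 0.19) with an adjusted p of 0.227 in limma. For the other 6 the fitted change lay between 0.04 for bta-miR-26a and 0.28 for bta-miR-27a-3p. None of the 7 was called, beside 10 of 143 miRNAs, or 6.99%. None had an unadjusted p under 0.05, beside 23.8% of all miRNAs. The median of the members was 0.20 against 0.09 for all miRNAs. Without scaling, every value fell by 0.34 and 6 of the 7 became negative.

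The change with time also moved with the base composition of the probes. Among the 91 miRNAs whose longer probe was under 60% G and C the median change was 0.17, and among the other 52 it was -0.45. Of the 7 members 6 fell in the former class, with bta-miR-23b-3p at 60% itself. The part of base composition in the members' change was not tested.

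**Figure D2:**
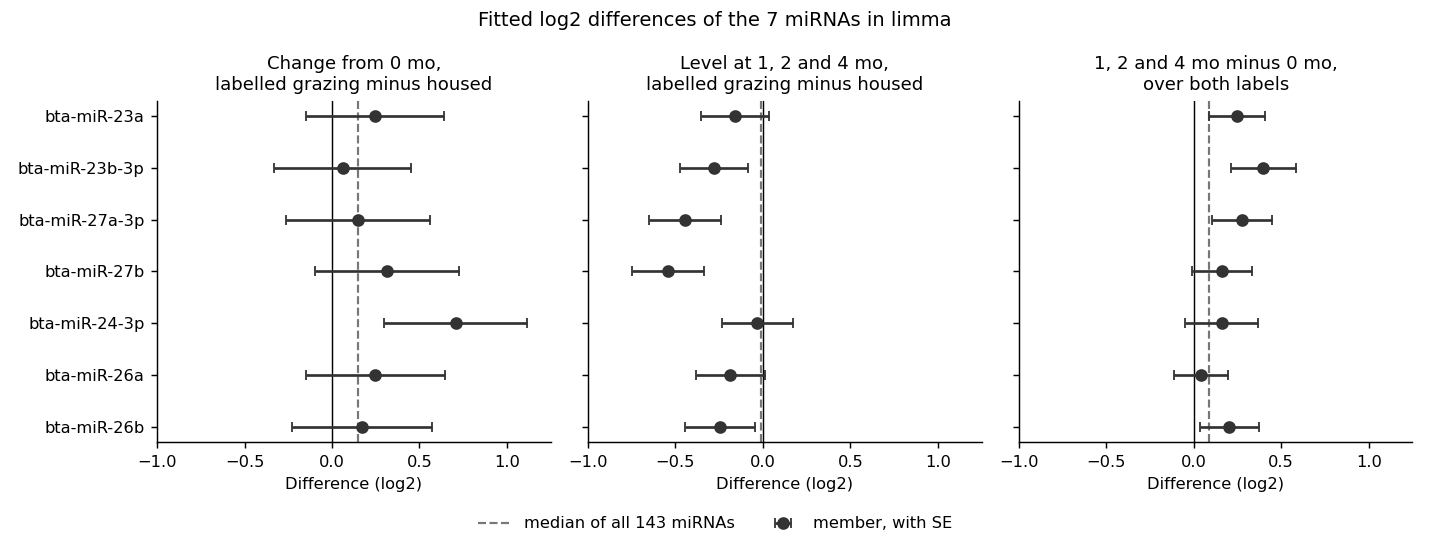
Log2 differences fitted by limma for the 7 miRNAs in the 3 comparisons, with standard errors as bars and the median of all 143 miRNAs as a dashed line. No member passed an adjusted p of 0.05, and the member furthest from the dashed line was bta-miR-24-3p in the first panel and bta-miR-27b in the second.

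Ratios of members on the same array do not depend on a scaling by 1 factor per array, and 9 pairs were compared, of which 6 lay within a cluster and 3 were paralogues. Each label had 4 arrays, so an exact two-sided permutation test could not give a p below 0.0286, and with 9 pairs none could pass after adjustment unless several pairs reached that value together. For 3 of the 9 pairs the arrays of the labels did not overlap. Among all 10153 pairs of the 143 miRNAs the same held for 18.1%. The adjusted p of each of these 3 pairs was 0.0857 in the exact permutation test, so 0 of 9 passed. The 4 arrays of a label hold pools of the same steers over time, so the test describes these pools. It did not pair arrays by month, and it included the 0 mo arrays, taken before grazing. Without them 4 of the 9 pairs did not overlap, and the share among all pairs was not counted. The differences were then 0.29 for bta-miR-23a over bta-miR-27a-3p, -0.51 for bta-miR-27b over bta-miR-24-3p and -0.42 for bta-miR-27a-3p over bta-miR-24-3p. For bta-miR-27a-3p over bta-miR-27b the difference was then 0.093.

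In the miR-23a/27a/24 cluster, the log2 ratio of bta-miR-23a to bta-miR-27a-3p was 0.27, 0.22, 0.26 and 0.08 at 0, 1, 2 and 4 mo on the arrays labelled housed and 0.46, 0.57, 0.28 and 0.58 on those labelled grazing. The means of 0.21 ± 0.09 and 0.47 ± 0.14 (SD, n = 4) differed by 0.26, with p = 0.0286 in the exact permutation test. At 2 mo the ratio was nearly the same in both. The ratio of bta-miR-27a-3p to bta-miR-24-3p had means of -0.65 ± 0.22 and -0.93 ± 0.10 (SD, n = 4) and overlapped, with p = 0.114 in the exact permutation test. The overlap came only from the array labelled housed 0 mo, at -0.95. At 1, 2 and 4 mo this ratio was -0.46, -0.67 and -0.53 labelled housed, and -0.94, -1.05 and -0.92 labelled grazing. The ratio of bta-miR-23a to bta-miR-24-3p had means of -0.45 ± 0.18 and -0.46 ± 0.21 (SD, n = 4), with p = 0.886 in the exact permutation test.

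In the miR-23b/27b/24 cluster, the log2 ratio of bta-miR-27b to bta-miR-24-3p was -0.54, -0.27, -0.48 and -0.26 on the arrays labelled housed and -0.65, -0.80, -0.98 and -0.76 on those labelled grazing. It was the largest difference among the pairs, at -0.41, and was lower on the array labelled grazing in each of the 4 months, with p = 0.0286 in the exact permutation test. The ratio of bta-miR-23b-3p to bta-miR-27b had means of -0.99 ± 0.23 and -0.67 ± 0.23 (SD, n = 4), with p = 0.114 in the exact permutation test. The ratio of bta-miR-23b-3p to bta-miR-24-3p had means of -1.38 ± 0.31 and -1.46 ± 0.31 (SD, n = 4), with p = 0.657 in the exact permutation test. Its 8 values spanned -1.88 to -1.07.

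Among the paralogues, the log2 ratio of bta-miR-27a-3p to bta-miR-27b was -0.42, -0.19, -0.19 and -0.27 on the arrays labelled housed and -0.16, -0.14, -0.07 and -0.16 on those labelled grazing. These did not overlap, and the means differed by 0.14 with p = 0.0286 in the exact permutation test. The gap was widest at 0 mo, before grazing, and without the 0 mo arrays the difference was 0.093. The ratio of bta-miR-23a to bta-miR-23b-3p had means of 0.93 ± 0.13 and 1.01 ± 0.16 (SD, n = 4), with p = 0.486 in the exact permutation test. The ratio of bta-miR-26a to bta-miR-26b had means of -0.03 ± 0.13 and 0.01 ± 0.15 (SD, n = 4), with p = 0.629 in the exact permutation test.

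**Figure D3:**
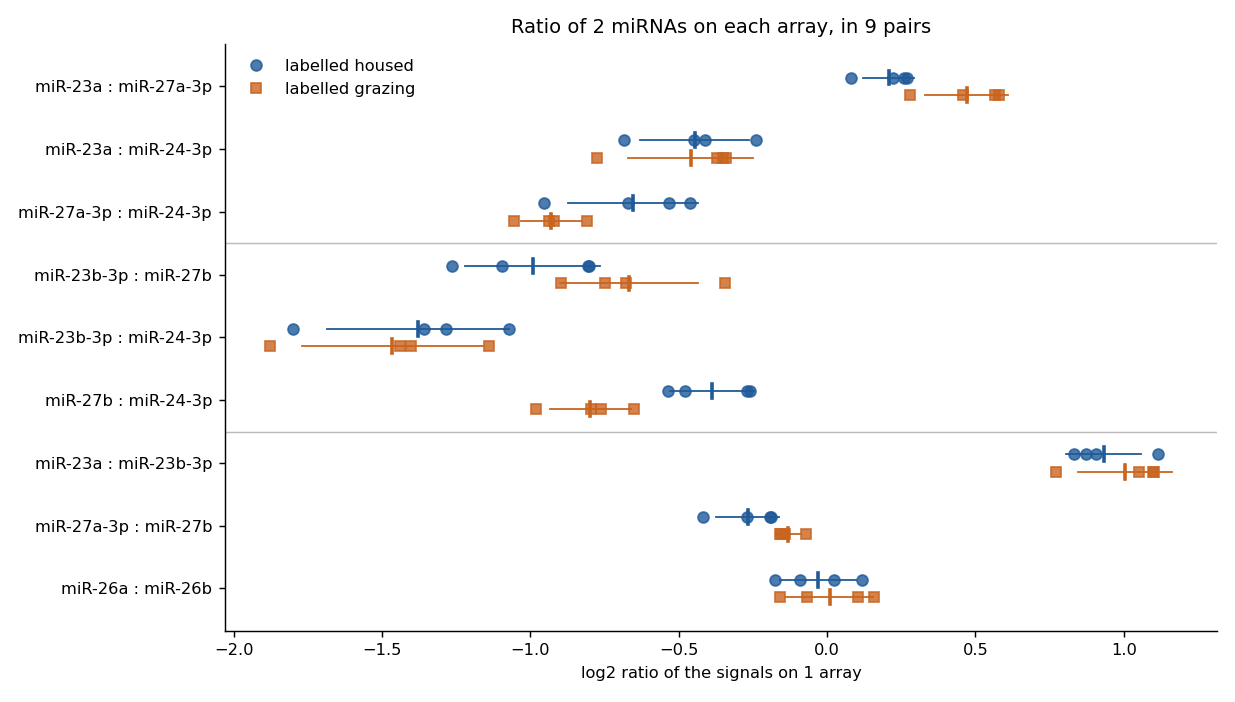
Log2 ratio of the signals of 2 miRNAs on the same array for 9 pairs, with 1 point per array, a tick at the mean of each label and a line over 1 SD on either side (n = 4). Grey lines part the chromosome 7 cluster, the chromosome 8 cluster and the paralogues, and the labels stand apart for miR-23a over miR-27a-3p, miR-27b over miR-24-3p and miR-27a-3p over miR-27b.

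The ratio of bta-miR-23a to bta-miR-27a-3p also moved with the brightness of the arrays. The 3 dimmest arrays, labelled grazing 1, 4 and 0 mo, had ratios of bta-miR-23a to bta-miR-27a-3p of 0.57, 0.58 and 0.46, and the other 5 arrays had 0.08 to 0.28. The arrays of 2 mo were close in brightness, with 90th percentiles of 50.7 labelled housed and 56.1 labelled grazing, and their ratios were 0.26 and 0.28. For bta-miR-27b over bta-miR-24-3p the same 2 arrays gave -0.48 and -0.98, and for bta-miR-27a-3p over bta-miR-27b they gave -0.19 and -0.07. The part of brightness in these differences was not tested. With normexp background correction 2 of the 9 pairs did not overlap, and with quantile normalization 1.

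**Figure D4:**
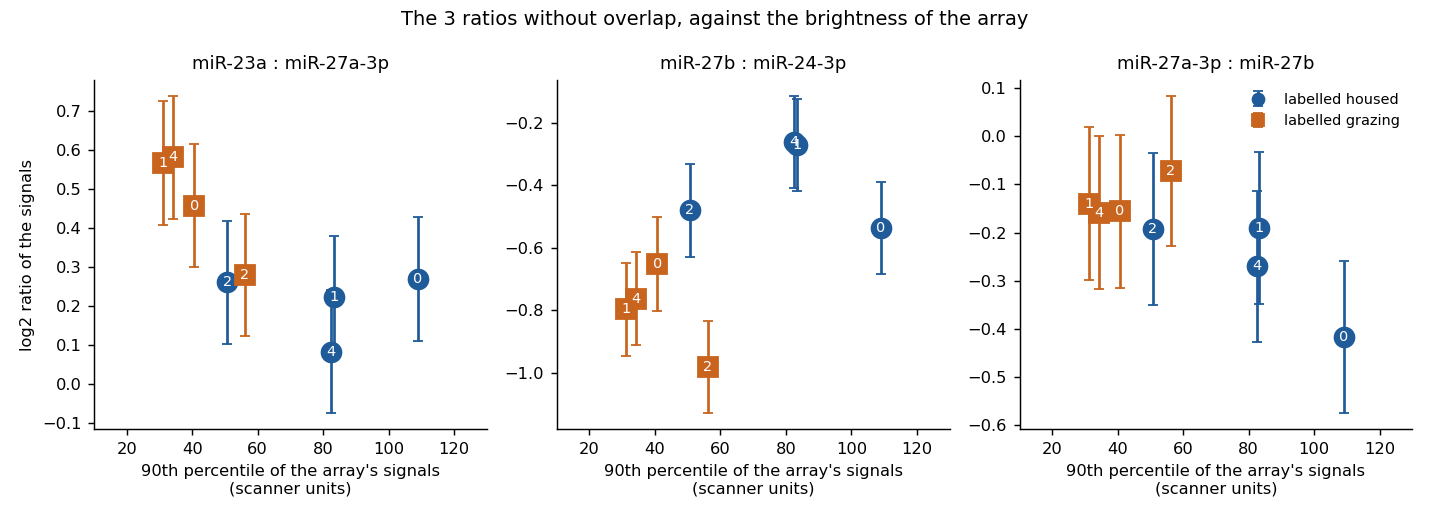
The 3 ratios without overlap plotted against the 90th percentile of each array's signals in scanner units, with the month inside each point and the scanner software's error as bars. At 2 mo, where the arrays were similar in brightness, the labels met for miR-23a over miR-27a-3p (0.26 and 0.28) and stood apart for miR-27b over miR-24-3p (-0.48 and -0.98).

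The ratios of paralogues varied less over the arrays than those within a cluster. The SD of the ratio over the 8 arrays was 0.10 for the paralogues bta-miR-27a-3p and bta-miR-27b, 0.13 for bta-miR-26a and bta-miR-26b, and 0.14 for bta-miR-23a and bta-miR-23b-3p, below the error of 0.16 that the scanner software gives to such a ratio. Of all pairs, 0.719%, 1.63% and 2.11% had a smaller SD. Within the clusters the SD lay between 0.18 for bta-miR-23a and bta-miR-27a-3p, with 5.01% of all pairs below it, and 0.29 for bta-miR-23b-3p and bta-miR-24-3p, with 19.5% below it. The median over the 9 pairs was 0.18, and over all 10153 pairs it was 0.48. Bright miRNAs carry less error than dim ones, and the pairs were not matched for brightness. The probes of paralogues differ at only 1 or 2 of the bases that they share. The part of binding to the paralogue in these SDs was not tested.

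Co-transcribed members were not each other's nearest miRNAs on the arrays. By the SD of the log2 ratio over the 8 arrays, bta-miR-27a-3p and bta-miR-27b were nearest to each other among the 142 other miRNAs. For bta-miR-23a the nearest was bta-miR-26b (SD 0.11), and its nearest non-member was bta-miR-20a (SD 0.12). For bta-miR-23b-3p it was bta-let-7d (SD 0.09), for bta-miR-24-3p bta-miR-22-3p (SD 0.12), for bta-miR-26a bta-miR-374a (SD 0.09) and for bta-miR-26b bta-miR-151-5p (SD 0.08). The nearest non-members of bta-miR-27a-3p and bta-miR-27b were bta-let-7f (SD 0.16) and bta-miR-17-3p (SD 0.14). In the order of likeness to bta-miR-24-3p its cluster members came at places 12 for bta-miR-23a, 21 for bta-miR-27a-3p, 34 for bta-miR-27b and 43 for bta-miR-23b-3p, so none was among the first 10.

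As an example of such a neighbour, the scaled level of bta-miR-22-3p was -1.29, -1.70, -1.70 and -1.54 on the arrays labelled housed and -2.26, -1.81, -1.22 and -2.08 on those labelled grazing. Like bta-miR-24-3p, it was lowest on the array labelled grazing 0 mo and highest on that labelled grazing 2 mo. As it was picked for its likeness to bta-miR-24-3p on these same arrays, this follows from the choice and is a description.

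Markers of blood cells were present in the pools. The red-cell miRNAs bta-miR-144, bta-miR-451 and bta-miR-486 were detected on all 8 arrays. Their summed raw signal, not scaled for array brightness, was 1989 to 3893 labelled housed and 802 to 968 labelled grazing. Scaled, bta-miR-451 labelled grazing minus labelled housed was -0.15, -0.38, -1.29 and -1.09 at 0, 1, 2 and 4 mo. That difference was -0.29, -0.86, -1.74 and -1.55 for bta-miR-144, and 0.07, 0.16, -1.03 and -0.12 for bta-miR-486. Listed for platelets and myeloid cells, bta-miR-223 and bta-miR-126-3p were detected on all 8 arrays too, with raw sums of 3458 to 7728 and 1931 to 3555. The latter miRNA is not specific to these cells. Scaled, bta-miR-223 differed by -0.21, 0.43, 0.91 and -0.07 in the order of the months, and bta-miR-126-3p by -0.70, -0.51, -0.74 and -0.49. The lymphocyte miRNAs bta-miR-150 and bta-miR-155, also detected on all 8, had raw sums of 40.0 to 165 and 40.1 to 62.9. Scaled, bta-miR-150 differed by -0.26, 0.77, 0.99 and 0.75, and bta-miR-155 by -0.27, -0.0064, -0.09 and -0.12. Of 7 muscle miRNAs, 0 were detected on all arrays and 1, bta-miR-133b, on at least 1 array.

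The member that serves as the partner of bta-miR-451 in the red-cell index is bta-miR-23a. The log2 ratio of bta-miR-451 to bta-miR-23a was 1.66, 1.75, 2.16 and 2.51 at 0, 1, 2 and 4 mo on the arrays labelled housed, and 1.92, 1.63, 0.92 and 1.59 on those labelled grazing, with an error of 0.18 on each. It was highest on the array labelled housed 4 mo and lowest on that labelled grazing 2 mo. On the arrays labelled housed the scaled level of bta-miR-451 changed from 0 mo by 0.40, 0.55 and 0.85 and that of bta-miR-23a by 0.31, 0.06 and 0.0040. On those labelled grazing bta-miR-451 changed by 0.17, -0.59 and -0.09 and bta-miR-23a by 0.46, 0.41 and 0.24, so the change of bta-miR-23a was the larger in size at 1 and 4 mo. The array labelled grazing 2 mo, with the highest level of bta-miR-24-3p, thus had the lowest red-cell index, and the part of red-cell RNA in the members' levels was not tested.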

How the data were processed

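For each group and month, exosomal RNA from plasma of 3 steers was mixed, labelled with Cy3 and hybridized to 1 array of a custom Agilent design. Scans were quantified by the authors in Feature Extraction 10.7.3.1. Their deposited files hold background-subtracted intensity per spot, a total per miRNA with its error estimate, and detection flags. The authors also deposited a table whose values are a ratio of each signal to 1 factor per array. It is linear and not centred, its columns had medians of 0.000664, 0.000926, 0.00149 and 0.000915 for the arrays labelled housed and 0.00187, 0.00257, 0.00135 and 0.00241 for those labelled grazing, and it served as an alternative.

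The total intensity per miRNA was divided by the array's 90th percentile over 744 miRNAs, and log2 was taken. Undetected values and 104 of 1398 detected ones were raised to 0.114, which touched 5 of the 143 miRNAs tested and no member. Errors of levels and ratios were propagated from the scanner software's error estimates, which cover the spots of 1 array; the number of arrays limits the precision. Tests covered the 143 miRNAs that all 8 arrays detected and used limma 3.58.1 under R 4.3.3 with Benjamini-Hochberg adjustment at 0.05. The code of the fits was checked on simulated data with planted changes larger than any fitted for a member. That check cannot tell whether changes of the members' size would be found. Fits between labels had month as a factor and 2 residual degrees of freedom, and the fit over time had label as a covariate and 5. Standard errors and p-values in limma used its empirical Bayes variance, which borrows from all miRNAs tested. They therefore rest on more than the residual degrees of freedom of 1 miRNA. Ratios of 9 pairs were compared by exact permutation of the 8 arrays with scipy 1.17.1. Python 3.11.15, numpy 2.4.6 and pandas 2.3.3 were also used. Groups were taken from the deposited labels, and no array was moved.

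The miRNAs named are the members, their other arms and relatives, the nearest non-member of each by the SD of the log2 ratio, marker miRNAs and let-7g. Members, lists and tests were chosen with earlier results of these data known. The alternatives were 6 scalings, 3 other signals, a wider filter, an intensity trend and leaving out a month; the ratios without 0 mo and by 1 probe only were added after seeing the data. Mature miRNA sequences, single-animal qRT-PCR and predicted targets are not analysed here.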

Additional observations from a re-analysis of the deposited data

Results flagged for a closer look

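For 2 members, every later array moved from 0 mo in 1 direction on the arrays labelled grazing and in the other on those labelled housed. How many of all miRNAs did so was not counted, so it is not known whether this is unusual. The mean log2 change of bta-miR-24-3p differed by 0.71 between the labels, and that of bta-miR-26a by 0.25. The difference did not pass the test in limma for either, at adjusted p of 0.802 and 0.961. The 3 changes of a label share its 0 mo array, and on the array labelled grazing 0 mo all 7 members had their lowest scaled level. For bta-miR-26a the changes on the arrays labelled housed were -0.10, -0.08 and -0.08, each smaller than the error of 0.16. When the 90th percentile was taken over miRNAs detected on all arrays, bta-miR-26a had a difference of -0.19, and under quantile normalization one of -0.11.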

How the results depend on the processing

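The count of members called stayed at 0 in each of the 3 tests across miRNAs and the test of ratios under every alternative run, except that 1 member, bta-miR-27b, was called in the level at later months with the 90th percentile of the miRNAs found on all arrays and 1 with an intensity trend. The median SD of the 9 ratios ranged from 0.18 to 0.21. Signs of uncalled values changed as follows, and the cause was not tested beyond the shift that each scaling gives to all miRNAs alike. For the change from 0 mo, the 75th percentile gave -0.090 for bta-miR-23b-3p and -0.0047 for bta-miR-27a-3p. The 90th percentile of the miRNAs found on all arrays gave -0.19 for bta-miR-23a, -0.37 for bta-miR-23b-3p, -0.29 for bta-miR-27a-3p, -0.12 for bta-miR-27b, -0.19 for bta-miR-26a and -0.26 for bta-miR-26b. Quantile normalization gave -0.11 for bta-miR-26a and -0.24 for bta-miR-26b, and leaving out 2 mo gave -0.040 for bta-miR-27a-3p. For the level at later months, scaling to let-7g gave 0.17 for bta-miR-23a, 0.046 for bta-miR-23b-3p, 0.29 for bta-miR-24-3p, 0.14 for bta-miR-26a and 0.081 for bta-miR-26b. For bta-miR-24-3p the authors' table gave 0.031, leaving out 1 mo 0.014 and leaving out 4 mo 0.093. For the change with time, no scaling gave -0.10 for bta-miR-23a, -0.066 for bta-miR-27a-3p, -0.18 for bta-miR-27b, -0.18 for bta-miR-24-3p, -0.30 for bta-miR-26a and -0.14 for bta-miR-26b. For bta-miR-26a normexp gave -0.082, scaling to let-7g -0.086 and leaving out 1 mo -0.0042. Among the ratios, normexp gave a difference of 0.012 for bta-miR-23a over bta-miR-24-3p, 0.041 for bta-miR-23b-3p over bta-miR-24-3p and -0.028 for bta-miR-23a over bta-miR-23b-3p. For bta-miR-23a over bta-miR-24-3p it was 0.027 without 1 mo and 0.10 without 2 mo, for bta-miR-23b-3p over bta-miR-24-3p 0.083 without 2 mo, and for bta-miR-26a over bta-miR-26b -0.029 without 4 mo. With a month left out, no ratio could have a p below 0.1 in the exact permutation test. With the longer or the shorter probe alone, which was added after seeing the data, 2 of 9 pairs did not overlap. The pair that came to overlap was bta-miR-27a-3p over bta-miR-27b with the longer, at 0.10, and bta-miR-23a over bta-miR-27a-3p with the shorter, at 0.19. Only bta-miR-27b over bta-miR-24-3p stayed without overlap with either, at -0.40 and -0.43. Leaving out 2 mo left 4 pairs without overlap, and leaving out 1 mo or 4 mo left 3.

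The labels carry no replicate numbers to pair by; the fits between labels paired the arrays by month, which was a factor in them. Leaving out 1 of the 2 arrays of a month was not run, as it leaves that month without a contrast. With 1 pool per group and month, none of these values holds the spread between steers, and the same steers stand behind all arrays of a label.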
